A study of Homo sapiens with 4 samples.

Results

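KIAA1324 and the human proteins that carry a mannose-6-phosphate receptor homology (MRH) domain were followed in RNAseq of MKN28 cells. The members were chosen by family membership and not by their values, though with earlier results of these data known. They were KIAA1324, its paralogue KIAA1324L, and IGF2R, M6PR, OS9, ERLEC1, PRKCSH and GNPTG. All 8 were listed among the 23362 genes of the table.

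MKN28 is a human gastric adenocarcinoma cell line. It was infected with a retroviral vector (pRetroX) carrying 3HA-tagged KIAA1324 under a tet-on promoter, which doxycycline switches on, and was selected with G418 and puromycin. The 4 groups were cells with luciferase (Luc, the control), cells with wild-type KIAA1324 (WT), cells with 3NQ, in which asparagines at 3 putative N-glycosylation sites were replaced by glutamine, and cells with ΔTM, which lacks the transmembrane domain. Each group was 1 library, and neither the labels nor the methods say whether doxycycline was present when the RNA was taken, or whether the lines were single clones.

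The comparisons ask how the wild-type construct and its mutants changed the transcriptome of the host cells. With 1 library per group, no comparison had a replicate check, no test was made and no p-value is given. Values are FPKM, fragments scaled by transcript length and by mapped reads, which can be compared between genes because they are per length. Ratios are differences of log2(FPKM + 1), which understate the change of low genes. Calls were made where the ratio passed 1.5-fold, or 0.585 on the log2 scale, among the 11769 genes that reached an FPKM of 1 in any library. A gene listed at 0 in a library got no ratio there, because a listed 0 can be a failed estimate.

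The MRH domain is a lectin fold found in proteins of the secretory pathway that handle N-glycans. In the endoplasmic reticulum (ER), glucosidase II trims new glycans, while OS9 and ERLEC1 read trimmed glycans on misfolded proteins and hand them to the degradation machinery. In the Golgi apparatus, a phosphotransferase tags lysosomal enzymes with mannose 6-phosphate, and the receptors IGF2R and M6PR carry the tagged enzymes towards lysosomes. KIAA1324, also called ELAPOR1 or inceptor, is a transmembrane protein that has been reported to bind the insulin receptor, the IGF1 receptor and the chaperone GRP78, the product of HSPA5.

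Because 3NQ differs from WT at glycosylation sites, the mutated sites are shown beside the paralogue. The coding sequences are those of the GENCODE annotation on GRCh37, the build of the FPKM table. The KIAA1324 protein (ENST00000369939, 22 coding exons) has 1013 residues, of which 55 (5.43%) are cysteines. It holds 9 N-glycosylation sequons, that is an asparagine, then any residue but proline, then a serine or threonine. KIAA1324L has 1029 residues and also 9 sequons, and 54.2% of 1006 aligned residues were identical. The 3 sites exchanged in 3NQ are N153, N404 and N672, counted from the first methionine. Each is given here on the coding strand, 5′ to 3′, with capitals marking the 3 codons of the sequon, above the aligned codons of KIAA1324L. The flanks stop at the exon end.
KIAA1324 N153, exon 3, chr1:109707294-109707313, plus strand: tccaccgggAACTGTACTtc
KIAA1324L residue 166, exon 3, chr7:86577043-86577062, minus strand: aggccagacGGCTGTAACaa
KIAA1324 N404, exon 9, chr1:109730958-109730976, plus strand: tcctactccAATGGCTCAg
KIAA1324L residue 420, exon 9, chr7:86556052-86556073, minus strand: acattttcaGATGGAACCaaag
KIAA1324 N672, exon 15, chr1:109737100-109737126, plus strand: ttcaactacAACTTCTCCgctttggca
KIAA1324L residue 688, exon 15, chr7:86541478-86541504, minus strand: ttgcactatGACTTTAGCaacctcagc

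At all 3 of these positions the KIAA1324L codon aligned to the asparagine was another one, GGC, GAT and GAC in this order. None of the aligned positions itself began a sequon. The flank shown after residue 688, however, does hold a sequon of KIAA1324L (asparagine, leucine, serine). A sequon stood at the exact aligned position of the paralogue at 2 of the 9 sequons of KIAA1324, N544 and N717. Nearby sequons were not counted, such as that after residue 688 and that just before residue 406, which aligned to N390. The count therefore depends on the alignment. These pairs are shown to contrast with the mutated sites, with capitals again on the 3 sequon codons.
KIAA1324 N544, exon 13, chr1:109734423-109734449, plus strand: attgaggagAACACTACCacgagcttc
KIAA1324L residue 560, exon 13, chr7:86544075-86544101, minus strand: atcttcaagAATGCAACTtttacattt
KIAA1324 N717, exon 16, chr1:109740114-109740140, plus strand: tgcaccgacAATGTCACTgacctccgg
KIAA1324L residue 733, exon 16, chr7:86539273-86539299, minus strand: tgtaccaacAATATAACAgactttaca

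The construct ΔTM lacks the membrane anchor, whose borders the study does not give. Past the first 60 residues, which were left out of the search because a signal peptide would lie there, the most hydrophobic window of 19 residues in KIAA1324 ran from residue 911 to 929 in exon 20. Its coding sequence lies at chr1:109742783-109742839 on the plus strand and is given as the candidate place of the anchor in the gene, with all of its bases in capitals.
KIAA1324 residues 911 to 929: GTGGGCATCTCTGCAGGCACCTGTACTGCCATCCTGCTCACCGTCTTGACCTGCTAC

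The other members differ in length and in their number of sequons. IGF2R is the longest, with 2491 residues and 20 sequons. M6PR has 277 residues and 5 sequons, the most per 100 residues of the 8 members (1.81). OS9 (667 residues) and ERLEC1 (483 residues) have 1 sequon each, and PRKCSH (535 residues) and GNPTG (305 residues) have 2 each. PRKCSH was the only member whose protein ended in a KDEL-type ER retrieval signal.

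KIAA1324 (ENSG00000116299) spans bases 109656301 to 109749401 of chromosome 1, plus strand. It was measured at 2.86 FPKM with Luc, 11185 with WT and 8197 with 3NQ, and was listed at 0 for the library labelled ΔTM. The gene thus stood among the low genes in Luc, at rank 10054, was first of all genes in WT, and was second in 3NQ behind IMMP1L. It took 1.98% of the summed FPKM in WT and 1.4% in 3NQ. The log2 ratio to Luc was 11.50 in WT and 11.05 in 3NQ, and the level in WT was 1.36 times that in 3NQ, which is short of 1.5-fold. The FPKM counts reads of the whole gene, so the construct and the native gene cannot be told apart. In bulk RNA, more cells with the construct and more RNA per cell cannot be told apart either.

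The library labelled ΔTM gave no measurable level of the gene its construct carries. A deletion of the transmembrane domain leaves most of the coding sequence, but the listed value was 0, below the 2.86 of Luc. The table had 14 rows at 0 in some library and at 10 FPKM or more in another, and 5 of them were at 0 in this library, KIAA1324 among them. Every value given below for this library rests on its label. What the 0 stems from was not tested.

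The genes around KIAA1324 did not share its levels. C1orf194, which overlaps it by 179 bases on the opposite strand, was listed at 0 in all 4 libraries. Of the 3 nearest genes on each side, TMEM167B, TAF13 and WDR47 before it and SARS, CELSR2 and PSRC1 after it, only TAF13 passed 1.5-fold against Luc. TAF13, a subunit of the general transcription factor TFIID, had an FPKM of 96.9 with Luc, 162.3 with WT, 121.8 with 3NQ and 105.5 for the ΔTM-labelled library, a log2 ratio of 0.74 in WT.

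KIAA1324L (ENSG00000164659, chromosome 7 from 86506222 to 86689015, minus strand), the paralogue, stayed low in all libraries. Its FPKM was 10.6 with Luc, 15.1 with WT, 13.6 with 3NQ and 12.2 for the ΔTM-labelled library. All 3 libraries thus stood above Luc, with log2 ratios of 0.47, 0.33 and 0.18, but none passed the threshold. KIAA1324 stood at 0.269 times the FPKM of KIAA1324L in Luc, 742 times in WT and 601 times in 3NQ.

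**Figure D1:**
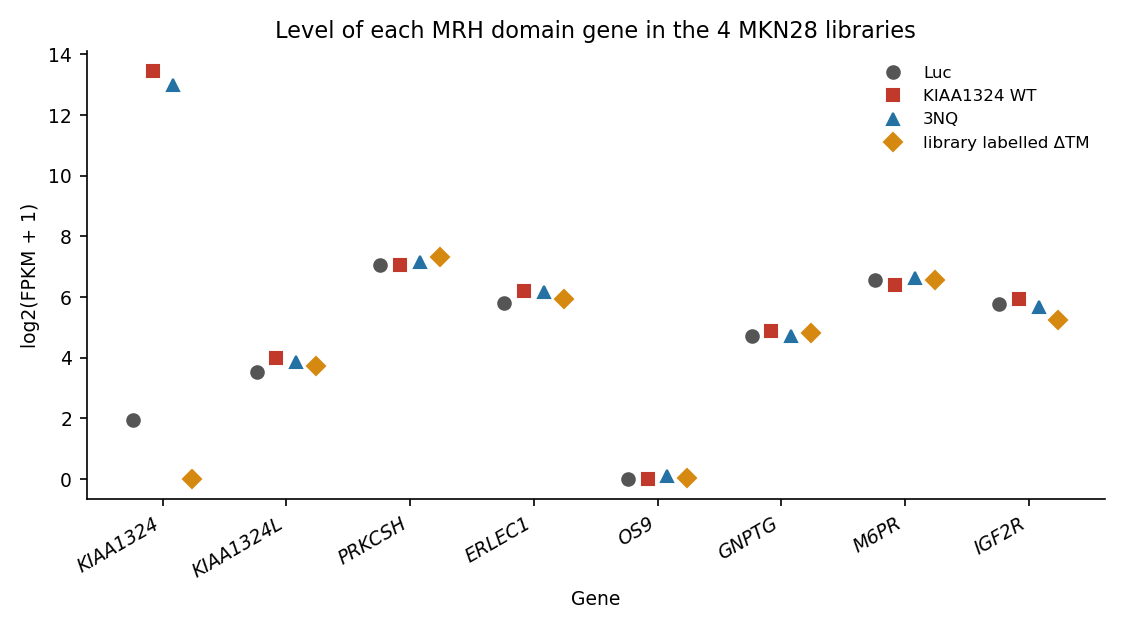
Level of each of the 8 genes on the log2(FPKM + 1) scale, with 1 point for each MKN28 library (Luc, KIAA1324 WT, 3NQ and the library labelled ΔTM) and no error, as there were no replicates. KIAA1324 runs from a listed 0 to 11185 FPKM, OS9 lies at or near 0 in all libraries, and the points of each of the other 6 genes lie within 1.65-fold.

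PRKCSH (ENSG00000130175, chromosome 19 from 11546109 to 11561783, plus strand) encodes the beta subunit of glucosidase II, which keeps the enzyme in the ER. It was the highest of the members other than KIAA1324. Its FPKM was 131.5 with Luc, 133.0 with WT, 140.6 with 3NQ and 158.6 for the ΔTM-labelled library, with log2 ratios to Luc of 0.02, 0.10 and 0.27. These values lay within 1.21-fold of each other and none was called.

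ERLEC1 (ENSG00000068912, chromosome 2 from 54014181 to 54045956, plus strand), an ER lectin that binds the SEL1L adaptor of the degradation complex, had an FPKM of 55.0 with Luc, 72.5 with WT, 71.5 with 3NQ and 60.6 for the ΔTM-labelled library. WT and 3NQ were nearly level, at log2 ratios of 0.39 and 0.37, and the library labelled ΔTM lay between them and Luc at 0.14. None passed the threshold.

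OS9 (ENSG00000135506, chromosome 12 from 58087738 to 58115340, plus strand), the other degradation lectin, was listed at 0 in Luc and WT, at 0.0692 in 3NQ and at 0.0131 in the library labelled ΔTM. It was the only member that failed the filter, and no ratio to Luc is given. Genes of wide use were listed at 0 as well, among them HEXA, a lysosomal hexosaminidase subunit, so the listed values do not show that OS9 was not expressed. In all, 4710 rows of the table were at 0 in all 4 libraries.

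GNPTG (ENSG00000090581, chromosome 16 from 1401924 to 1413352, plus strand), the gamma subunit of the phosphotransferase that starts the mannose 6-phosphate tag, varied least of the members. Its FPKM was 25.4 with Luc, 28.5 with WT, 25.4 with 3NQ and 26.9 for the ΔTM-labelled library. The log2 ratios were 0.16, 0.0029 and 0.08, and the highest value was 1.12 times the lowest.

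M6PR (ENSG00000003056, chromosome 12 from 9092959 to 9102551, minus strand), the cation-dependent mannose 6-phosphate receptor, had an FPKM of 94.0 with Luc, 84.2 with WT, 97.0 with 3NQ and 92.9 for the ΔTM-labelled library. WT was the lowest library, at a log2 ratio of −0.16, while 3NQ stood at 0.05 and the library labelled ΔTM at −0.02. None was called.

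IGF2R (ENSG00000197081, chromosome 6 from 160390131 to 160534539, plus strand), the cation-independent receptor, which also binds IGF2 and takes it to lysosomes, varied most of the members other than KIAA1324 and OS9. Its FPKM was 53.1 with Luc, 60.6 with WT, 50.3 with 3NQ and 36.7 for the ΔTM-labelled library. WT was thus the highest library and the library labelled ΔTM the lowest. The log2 ratio to Luc was 0.19 in WT, −0.08 in 3NQ and −0.52 for the ΔTM-labelled library, the last just short of the threshold. WT was 1.65 times the library labelled ΔTM, a log2 difference of 0.71 and the only call of a member besides KIAA1324 in any of the 6 pairs of libraries. A difference at least this large in either direction was found for 3.82% of all genes in that pair, and 15.1% of genes ranged at least as widely over the 4 libraries.

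**Figure D2:**
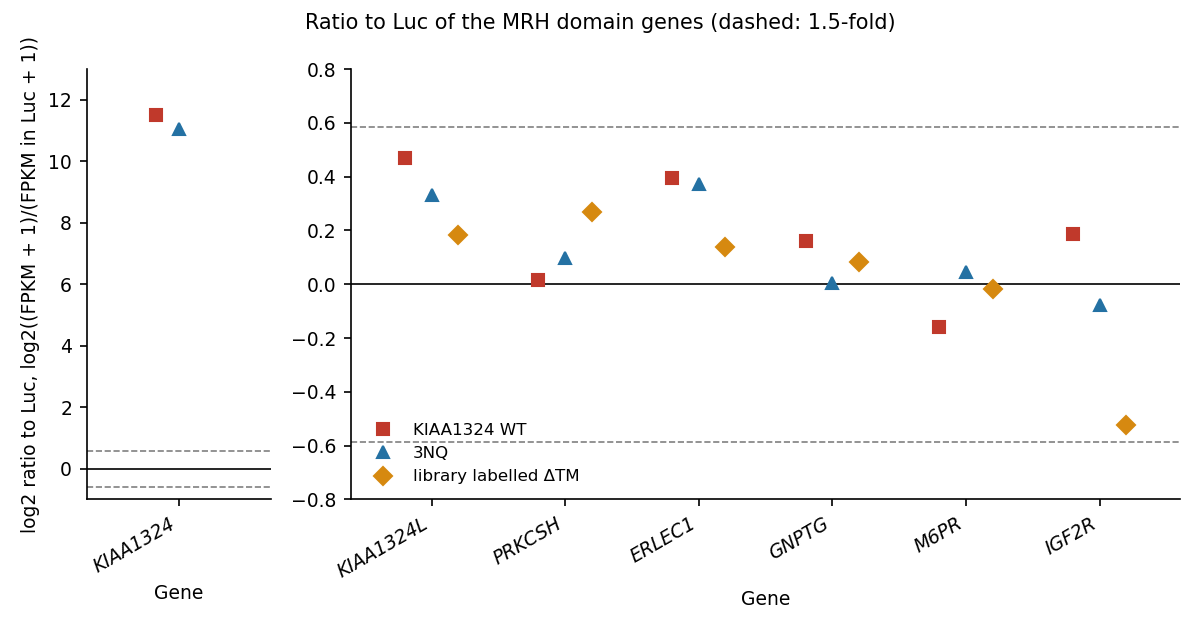
Log2 ratio to Luc, on log2(FPKM + 1), of KIAA1324 (left, on its own scale) and of the other 6 genes that passed the filter, with 1 point for each of WT, 3NQ and the library labelled ΔTM, a solid line at 0 and dashed lines at 1.5-fold. KIAA1324 lies above 11 in WT and 3NQ and has no ratio in the library labelled ΔTM, and all points of the other genes lie between the dashed lines, with IGF2R in the library labelled ΔTM the nearest to one, at −0.52.

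Read against all genes, these counts were as follows. Against Luc, 1 member, KIAA1324, was higher in WT and in 3NQ and none was lower, while 3.35% of tested genes were called higher and 3.26% lower in WT, and 1.75% and 2.5% in 3NQ. KIAA1324 is the gene that the WT and 3NQ constructs carry, so its call says nothing about the rest of the family. No other member was called against Luc. In the library labelled ΔTM no member was called, beside 1.5% higher and 1.47% lower of all genes. Between WT and 3NQ no member was called, beside 4.36% of genes in either direction, and between 3NQ and the library labelled ΔTM none, beside 3.24%. Between WT and the library labelled ΔTM IGF2R was called, beside 7.03%.

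The median gene ranged 1.27-fold from its lowest to its highest library, with quartiles of 1.17 and 1.47. GNPTG (1.12-fold), M6PR (1.15-fold) and PRKCSH (1.21-fold) ranged less than the median gene, and ERLEC1 (1.32-fold), KIAA1324L (1.42-fold) and IGF2R (1.65-fold) more. In the order of levels, PRKCSH was followed by M6PR, then by ERLEC1 and IGF2R, whose ranges over the libraries overlapped, then by GNPTG, KIAA1324L and OS9. The order of these 7 genes was the same in all 4 libraries. Summed over the members other than KIAA1324, the FPKM was 369.6 with Luc, 393.9 with WT, 398.5 with 3NQ and 388.0 for the ΔTM-labelled library.

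Several members work as a subunit or with a fixed partner, and their ratio within a library does not depend on how the libraries were scaled. PRKCSH stood at 0.558 times the FPKM of GANAB, the catalytic alpha subunit of glucosidase II, in Luc, at 0.695 in WT, 0.586 in 3NQ and 0.608 for the ΔTM-labelled library. GNPTG stood at 2.28 times the FPKM of GNPTAB, which encodes the alpha and beta subunits of the phosphotransferase, in Luc, at 2.69 in WT, 2.38 in 3NQ and 2.77 for the ΔTM-labelled library. These ratios of subunits varied by 1.25-fold and 1.21-fold over the libraries.

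The ratio of ERLEC1 to its adaptor SEL1L was 2.01 in Luc and 1.94 in WT, and 1.38 in 3NQ and 1.32 for the ΔTM-labelled library. Luc and WT thus lay together above the other pair of libraries. The FPKM of SEL1L was 27.4, 37.4, 51.7 and 46.1 in the same order of libraries. The ratio of IGF2R to M6PR was 0.565 with Luc, 0.72 with WT, 0.518 with 3NQ and 0.395 for the ΔTM-labelled library, a range of 1.82-fold, the widest of these 4 pairs.

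**Figure D3:**
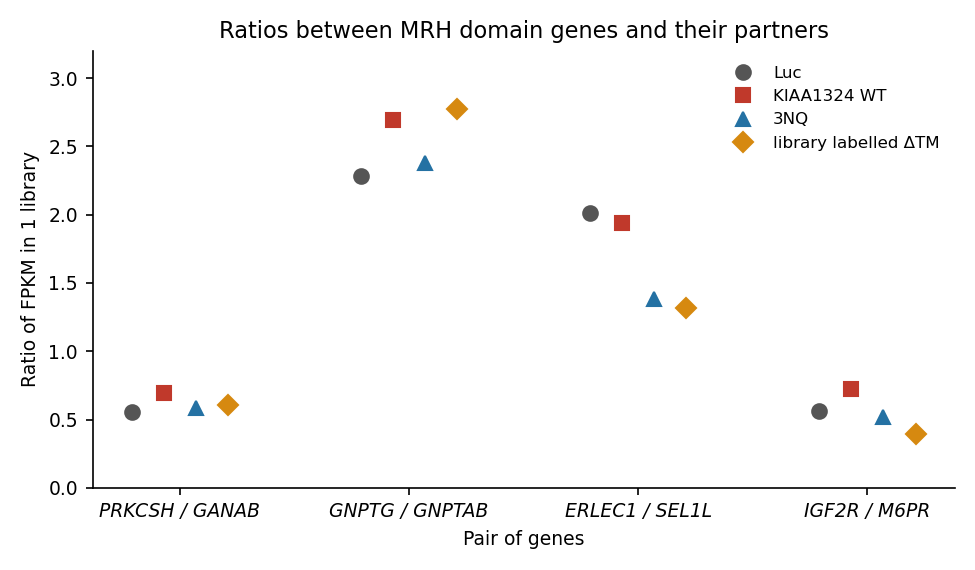
Ratio of the FPKM of an MRH domain gene to that of its partner within 1 library, for 4 pairs of genes, with 1 point for each library and a linear axis from 0. The ratio of ERLEC1 to SEL1L is near 2 in Luc and WT and below 1.4 in 3NQ and the library labelled ΔTM, while the ratios of the enzyme subunits vary by at most 1.25-fold.

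Around PRKCSH, the glucosidase II and calnexin cycle list, which covers the glucose-trimming enzymes and the lectin chaperones, held calls in 3NQ and the library labelled ΔTM but not in WT. Of its 8 genes, all of which passed the filter, none was called in WT (median log2 ratio 0.0033), 2 were higher in 3NQ (0.38) and 3 in the ΔTM-labelled library (0.39). Over all genes, 3.35%, 1.75% and 1.5% were called higher in these libraries, and the medians were −0.0047, −0.0375 and −0.0598. None of the 8 genes was called lower in any of them.

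CALR, the lectin chaperone calreticulin, had an FPKM of 757 with Luc, 693 with WT, 1107 with 3NQ and 1830 for the ΔTM-labelled library. Its log2 ratio was 1.27 in the last, and 0.55 in 3NQ, below the threshold. CANX, the membrane-bound lectin chaperone calnexin, had an FPKM of 249.0, 279.7, 392.3 and 430.5 in the same order and was called in 3NQ (0.65) and the ΔTM-labelled library (0.79). PDIA3, the disulfide isomerase that works with both, had an FPKM of 447, 436, 746 and 679 and was called in the same libraries (0.74 and 0.60). All 3 chaperone genes thus lay near Luc in WT and above it in the remaining pair of libraries. GANAB (235.6, 191.3, 240.1 and 261.0 FPKM) and UGGT1, the folding sensor that adds glucose back (33.7, 34.8, 42.4 and 47.0 FPKM), were not called.

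Around ERLEC1 and OS9, the list of the ER degradation machinery rose in part in all 3 libraries. Of its 17 genes, DERL1 and DERL3 failed the filter, and of the other 15, 3 were higher in WT (median 0.24), 6 in 3NQ (0.37) and 6 in the ΔTM-labelled library (0.21), with none lower. The share of all genes called higher was 3.35%, 1.75% and 1.5%, with medians of −0.0047, −0.0375 and −0.0598. These comparisons share the Luc library.

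HSPA5, which encodes the ER chaperone GRP78 and was reported to bind KIAA1324, had an FPKM of 318 with Luc, 521 with WT, 1114 with 3NQ and 1028 for the ΔTM-labelled library. All 3 libraries stood above Luc, with log2 ratios of 0.71, 1.80 and 1.69, and 3NQ and the library labelled ΔTM stood above WT. HERPUD1, a membrane protein of the degradation complex, had an FPKM of 41.2, 90.9, 111.9 and 91.8 in the same order, with log2 ratios of 1.12, 1.42 and 1.14. WT was therefore close to the library labelled ΔTM for HERPUD1, but not for HSPA5.

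HSP90B1, the ER chaperone GRP94, which binds OS9, had an FPKM of 315 with Luc, 275 with WT, 570 with 3NQ and 737 for the ΔTM-labelled library. It was called in 3NQ (0.85) and the ΔTM-labelled library (1.22) but was slightly below Luc in WT (−0.20). SYVN1, the ubiquitin ligase HRD1 of the complex, was called in all 3, with an FPKM of 35.0, 53.9, 57.8 and 60.7 and log2 ratios of 0.61, 0.71 and 0.78. SEL1L was called in 3NQ (0.89) and the ΔTM-labelled library (0.73) and stood at 0.44 in WT. DERL2, a membrane protein of the exit channel, followed the same order, with 36.7, 52.7, 69.0 and 68.6 FPKM and log2 ratios of 0.51, 0.89 and 0.88, of which the last pair was called.

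Around GNPTG, the list of the tagging enzymes showed no call. Over all genes, 3.35% were called higher and 3.26% lower in WT, 1.75% and 2.5% in 3NQ, and 1.5% and 1.47% for the ΔTM-labelled library. GNPTAB had an FPKM of 11.1 with Luc, 10.6 with WT, 10.7 with 3NQ and 9.71 for the ΔTM-labelled library. NAGPA, the enzyme that uncovers the tag, was listed at 0 in all 4 libraries. The list's 3 genes that passed the filter had medians of −0.06, −0.13 and −0.17.

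Around the receptors IGF2R and M6PR, the 23 genes of adaptor, clathrin and retromer sorting gave 1 call. It lay in the library labelled ΔTM, where 1.5% of all genes were called higher and 1.47% lower. SNX2, a sorting nexin of the retromer coat, had an FPKM of 47.9 with Luc, 51.1 with WT, 44.2 with 3NQ and 132.7 for the ΔTM-labelled library, a log2 ratio of 1.45 in the last. The other 22 genes lay between −0.42 and 0.39 in every comparison with Luc. The list's medians were 0.05, −0.09 and −0.12.

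The lysosomal cargo that the receptors carry gave no call against Luc in any library. Of 31 genes, HEXA was listed at 0 and 30 were tested, and their log2 ratios ran from −0.53 (CTSC) to 0.52 (NEU1) in WT, from −0.40 to 0.27 in 3NQ and from −0.30 to 0.29 in the library labelled ΔTM. The medians were 0.01, −0.12 and −0.04. CTSD, the protease cathepsin D, had an FPKM of 323 with Luc, 334 with WT, 298 with 3NQ and 327 for the ΔTM-labelled library. CTSB, cathepsin B, had 148.9, 144.9, 118.6 and 120.9 FPKM, and NPC2, which binds cholesterol in the lysosome, had 120.5, 120.2, 92.5 and 120.1 FPKM. The 30 tested cargo genes thus stayed within 1.5-fold of Luc. Over all genes, 3.35% were called higher and 3.26% lower in WT, and 1.75% and 2.5% in 3NQ. For the ΔTM-labelled library the shares were 1.5% and 1.47%. At these shares few calls would be met among 30 genes, so their absence is not read as a trait of the cargo.

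Lysosomal sorting receptors that do not read the tag lay below Luc in all 3 libraries without passing the threshold, except that rescaling to equal sums placed SCARB2 in WT above Luc (0.04). SORT1 (sortilin) had an FPKM of 86.2 with Luc, 69.1 with WT, 70.5 with 3NQ and 73.0 for the ΔTM-labelled library. SCARB2, which carries beta-glucocerebrosidase, had 54.2, 53.6, 45.3 and 47.7 FPKM. SORL1, the remaining gene of the list, lay furthest from Luc, with 12.4, 8.56, 8.80 and 9.20 FPKM and log2 ratios of −0.49, −0.45 and −0.39. The medians of the 3 genes were −0.31, −0.29 and −0.24.

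**Figure D4:**
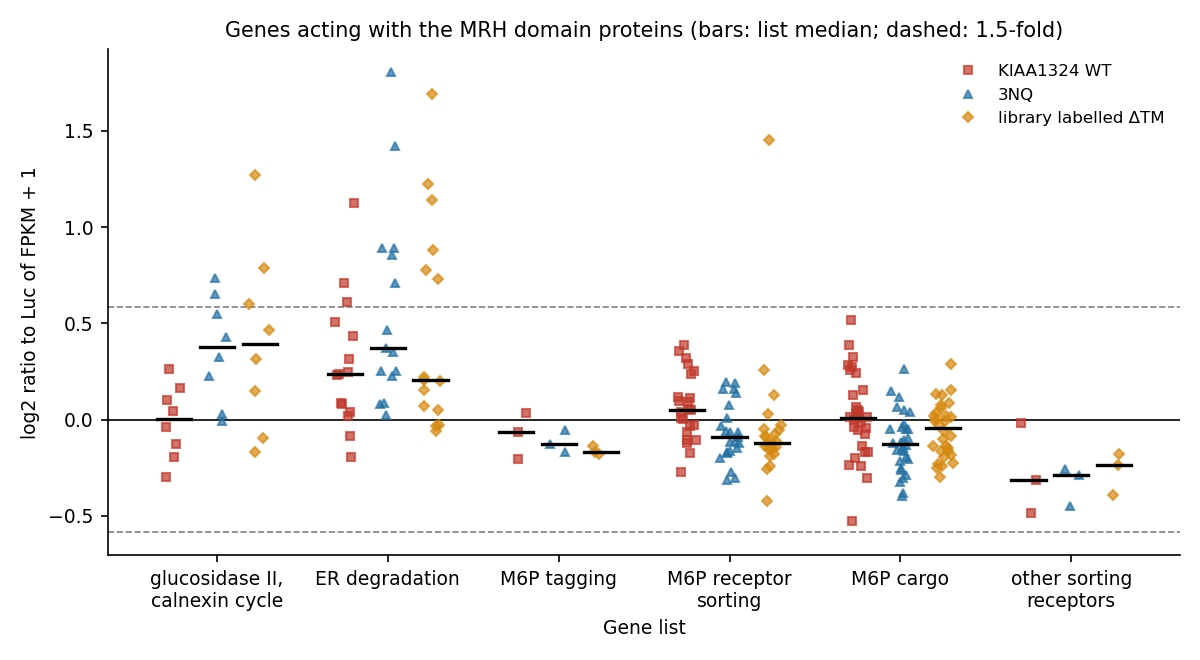
Log2 ratio to Luc, on log2(FPKM + 1), of the genes that passed the filter in 6 lists of genes that act with the MRH domain proteins, with 1 point per gene and library, a bar at the median of each list and dashed lines at 1.5-fold (M6P, mannose 6-phosphate). Points above the upper dashed line are in the glucosidase II and calnexin cycle list, the ER degradation list and, for SNX2 alone, the receptor sorting list, and no cargo gene passes a dashed line.

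Among the other ligands of IGF2R, PLG was listed at 0 in all 4 libraries and 3 genes were tested. IGF2, the growth factor that IGF2R clears, fell in 3NQ, with an FPKM of 7.12 with Luc, 5.81 with WT, 2.80 with 3NQ and 5.75 for the ΔTM-labelled library and a log2 ratio of −1.09 in 3NQ. TGFB1, whose latent form IGF2R binds, had 20.3, 17.7, 17.6 and 18.9 FPKM and was not called.

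Of the receptors and the chaperone reported to bind KIAA1324, HSPA5 was called and INSR and IGF1R were not. INSR, the insulin receptor, had an FPKM of 1.87 with Luc, 2.45 with WT, 1.33 with 3NQ and 1.36 for the ΔTM-labelled library. IGF1R had 34.1, 39.1, 33.3 and 33.5 FPKM. Both receptors were highest in WT, but their log2 ratios of 0.27 and 0.19 were below the threshold.

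Few genes had the order of KIAA1324, with both WT and 3NQ above both Luc and the library labelled ΔTM by 1.5-fold. They numbered 22 with KIAA1324, or 0.187% of the genes that passed the filter, and 20 genes (0.17%) had the opposite order. The 22 became 57 with a pseudocount of 0.1, 7 with a pseudocount of 5, 3 with a 2-fold threshold and 12 with an FPKM of at least 5. The measure of likeness was the gap between the lower of WT and 3NQ and the higher of Luc and the library labelled ΔTM, over 4 libraries. Unlike the ratios, the gap kept genes listed at 0. Of the 22 genes, 1 had such a value, KIAA1324 itself, so its place in the library labelled ΔTM rests on that 0. After KIAA1324 (11.05 on the log2 scale), the largest gaps were those of ALDH1A2 (1.82), IL8 (1.03), RREB1 (0.95) and FKBP1C (0.88).

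ALDH1A2, which makes retinoic acid, had an FPKM of 4.37 with Luc, 30.5 with WT, 17.9 with 3NQ and 3.99 for the ΔTM-labelled library. IL8, a chemokine that attracts neutrophils, had 5.88, 21.4, 17.8 and 8.25 FPKM. RREB1, a zinc finger transcription factor, had 14.8, 58.9, 29.6 and 12.8 FPKM. FKBP1C had 34.0, 71.3, 63.5 and 15.3 FPKM and is nearly identical to FKBP1A, so its reads may be split between the copies. No gene of the family other than KIAA1324 had this order.

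The cells carried general epithelial markers, and none particular to MKN28 was checked. The 5 epithelial markers EPCAM, CDH1, KRT8, KRT18 and KRT19 had an FPKM between 233 and 8501 in the 4 libraries, and their sum was 13450 with Luc, 7741 with WT, 10125 with 3NQ and 11708 for the ΔTM-labelled library. All 5 lay below Luc in WT, 3NQ and the library labelled ΔTM, with medians of −0.22, −0.33 and −0.18, though KRT19 in the last only by −0.0013. KRT8 and KRT18 were called lower in WT, with log2 ratios of −0.91 and −0.80, beside 3.26% of all genes. The part of these markers in the results was not tested. Of the 8 markers of blood, fibroblast, endothelial and red cells, 7 were matched to a row, PECAM1 was not matched, and only COL1A1 was above an FPKM of 1 (12.1 to 15.3), while the T cell marker CD3E was listed at 0 in all 4 libraries. The FPKM of all genes summed to between 560540 and 585104 per library, and the depth of the libraries is unknown.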

How the data were processed

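Poly(A) RNA of 4 MKN28 lines was sequenced as 1 library each on a HiSeq2500 after TruSeq preparation. The authors removed low-quality reads, aligned the others to GRCh37 by TopHat, and obtained FPKM for Ensembl genes from Cufflinks 2.1.1, with non-coding regions masked and with its corrections for fragment bias and multiple mapping. The deposited FPKM are scaled to library size and gene length, without counts, so the depth and its error are unknown.

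Ratios were computed in Python 3.11.15 with numpy 2.4.6 and pandas 2.3.3, with a pseudocount of 1, after an FPKM filter of 1 in at least 1 library, and tested on simulated data. Where a symbol repeated, the row with the larger mean FPKM was kept. Coding sequences came from GENCODE on GRCh37 and were aligned with Biopython 1.88 (BLOSUM62, gap opening 10, extension 0.5). Figures used matplotlib 3.10.9.

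The members and gene lists were chosen with earlier results of these data known. Named genes were the members, the key genes of each list, genes past 1.5-fold against Luc (at most 3 per list and library), the 5 largest gaps and the nearest neighbours of KIAA1324. HEXA, CTSC, NEU1, SORL1, DERL1, DERL3, PLG and PECAM1 were named after their values were seen, as extremes of a list or as genes with no ratio. Alternatives were other pseudocounts, scalings, filters, a 2-fold threshold and summed entries of a repeated symbol. The values of 1 gene on the list of proteins that bind KIAA1324 are not reported here.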

Additional observations from a re-analysis of the deposited data

Results flagged for a closer look

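Several genes stood on opposite sides of Luc in different libraries, with a difference between those libraries past 1.5-fold. None of these differences was tested, since each group was 1 library. On 1 side each gene lay close to Luc, so opposite changes were not shown. In WT, 47.3% of all genes lay at least as far from Luc as IGF2R, 61.3% as CALR, 88.4% as PDIA3 and 44.8% as HSP90B1. In 3NQ the share was 60.3% for SNX2 and 65.9% for NEU1, and for NEU1 in the library labelled ΔTM it was 60.7%. IGF2R was above Luc in WT and below it in the library labelled ΔTM, and the log2 difference between the libraries was 0.71. In the ER, CALR was below Luc in WT and above it in 3NQ and the library labelled ΔTM, so that WT minus 3NQ was −0.68 and WT minus the library labelled ΔTM was −1.40. The same differences were −0.77 and −0.64 for PDIA3, whose ratio in WT was −0.04 and turned to 0.02 after rescaling to equal sums, and −1.05 and −1.42 for HSP90B1. SNX2 was below Luc in 3NQ and above it in the library labelled ΔTM, with a difference of −1.57. NEU1, the lysosomal sialidase, had an FPKM of 26.6 with Luc, 38.5 with WT, 24.8 with 3NQ and 24.8 for the library labelled ΔTM, so that WT minus 3NQ was 0.61 and WT minus the library labelled ΔTM was 0.62.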

How the results depend on the processing

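No ratio of a member or named gene past the threshold changed sign under any alternative run. Of the members' ratios, 399 kept their side of the threshold and 1 did not, IGF2R between WT and the library labelled ΔTM with a 2-fold threshold, which left 0 members called in that pair. Many of these outcomes were fixed in advance, so the count overstates how far the ratios were tried. Another filter, keeping genes listed at 0 or summing entries does not alter the ratio of a gene listed once. A 2-fold threshold can only remove calls. The log2 ratio of KIAA1324 in WT ran from 10.48 with a pseudocount of 5 to 11.88 with a pseudocount of 0.1. With genes listed at 0 kept, an alternative chosen after seeing the data, KIAA1324 was also called in the pairs of the library labelled ΔTM, which then held 1 call against Luc, 2 against WT and 1 against 3NQ. The genes with the order of KIAA1324 numbered 57 with a pseudocount of 0.1, 7 with a pseudocount of 5, 3 with a 2-fold threshold and 12 with an FPKM of at least 5, against 22. With the same limit, 792 ratios of other named genes kept their side, 16 lost the call and 2 gained it. The gains were CALR in 3NQ, at 0.59 and 0.60 after rescaling, and SYVN1 in WT lost its call with a pseudocount of 5 (0.56). Rescaling shifted whole libraries against Luc by at most 0.0673 (log2), which turned the sign of 10 uncalled ratios to Luc, among them M6PR in the library labelled ΔTM and GNPTG in 3NQ. Ratios between the other libraries are not in that count, and that of ERLEC1 between WT and 3NQ turned as well. No library could be left out, since each group held 1. For the same reason no paired analysis was possible. The unknown depth limits the low genes, such as OS9, INSR and IGF2.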
